A study of Sus scrofa with 61 samples.

Results

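ND1, ND2, ND3, ND4, ND4L, ND5 and ND6 are the complex I subunits that are encoded by the mitochondrial genome. Their probes were found on the porcine array by the gene name in the scanner output, written in upper case. The 7 genes, of 39174 names that the array lists (symbols, accessions and transcript clusters), are read by 53 of the 60305 probes: 20 for ND1, 13 for ND2, 11 for ND4, 3 each for ND3 and ND5, 2 for ND6 and 1 for ND4L. After removal of probes close to background, 52 of these 53 and 42436 of all probes remained, and each of the 52 was well above background on all 61 arrays. The probe that was dropped, O13734 of ND2, was well above background on 2 of the 61 arrays. All probes are 60 bases long.

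The arrays measured RNA of the longissimus muscle of 61 pig fetuses, male according to the methods of the study, at 90 or 110 days of gestation, 1 array for each fetus. LW fetuses were purebred Large White and MS fetuses purebred Meishan. The crossbred LWMS had a MS dam and a LW sire, and MSLW a LW dam and a MS sire. By the methods of the study, sows of both breeds received mixed semen of LW and MS boars, and litters held purebred and crossbred fetuses. Fetuses of different boar breeds can thus be littermates, whereas those of different sow breeds cannot. No fetus was treated. At day 90 there were 8 fetuses of each genotype, and at day 110 there were 9 LW, 7 MS, 8 LWMS and 5 MSLW fetuses. The sow of each fetus is not in the sample labels, so littermates counted as separate fetuses. A litter has 1 sow and 1 gestational age, and p-values for age, for the breed of the sow, for their interaction, and between genotypes of different sow breeds are too small for this reason. Within each of the 8 groups they measure the spread between fetuses that may share a litter. Per array, 34350 to 45684 probes were well above background (median 41983), and the arrays sat on 8 slides of 6 to 8 arrays. In whole muscle, fewer cells of a type and less RNA per cell cannot be told apart.

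Complex I is the first enzyme of the respiratory chain. It takes electrons from NADH, passes them to ubiquinone and pumps protons across the inner mitochondrial membrane. Its membrane arm is built from the subunits made inside the mitochondrion, and most other subunits are encoded in the nucleus and imported. Mammalian mitochondrial DNA is inherited from the dam, is transcribed from both strands into long precursors that are cut at the transfer RNAs, and has strands of unequal base composition. ND6 lies on the strand opposite to the other subunits. The reference annotation (RefSeq, Sscrofa11.1) places the protein genes in the order ND1, ND2, COX1, COX2, ATP8, ATP6, COX3, ND3, ND4L, ND4, ND5, ND6 and CYTB. The fetuses of both purebreds and both crosses carry the mitochondrial DNA of the breed of their sow.

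The sequences on which the comparison of probes turns are given first, from 5′ to 3′ as listed for the array. The pair of overlapping ND2 probes below had the largest gap between sow breeds among overlapping probes. Capitals mark the bases that differ within 55 aligned bases, which are the substitution A13G (positions counted from 1 at the 5′ end of A_72_P719508) and 1 base that A_72_P727968 lacks.
A_72_P719508: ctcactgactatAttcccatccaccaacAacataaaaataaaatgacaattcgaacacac
A_72_P727968: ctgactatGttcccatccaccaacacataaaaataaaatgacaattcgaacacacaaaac

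A set of 3 overlapping ND1 probes starts at positions 393, 400 and 410 of the transcript, in the order printed. Capitals mark the bases outside the stretch shared with the last probe, or, in the last probe, outside the stretch shared with the first. The second probe lacks 1 base of the shared stretch. The capital G that opens the last probe stands where the other probes have C.
A_72_P754234: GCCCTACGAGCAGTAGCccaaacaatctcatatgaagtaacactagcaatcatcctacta
A_72_P739924: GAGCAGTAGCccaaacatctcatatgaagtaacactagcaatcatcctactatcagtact
A_72_P745561: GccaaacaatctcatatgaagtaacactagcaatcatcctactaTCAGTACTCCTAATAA

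A further ND1 pair starts at positions 678 and 683. Capitals mark the bases outside the shared stretch, within which each probe lacks 1 base of the other. The bases that follow the shared stretch differ as well, TCC in A_72_P758032 and CCC in A_72_P757573.
A_72_P757573: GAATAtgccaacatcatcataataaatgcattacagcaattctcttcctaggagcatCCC
A_72_P758032: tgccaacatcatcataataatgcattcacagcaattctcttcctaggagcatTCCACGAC

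The first 3 probes below are richer in G than most other members, and O2495 is shown beside A_72_P442203 because both are listed for ND6. In O13734 of ND2, capitals mark positions 6 to 52, a run of 47 bases that is the reverse complement of bases of A_72_P719508. O5353 belongs to ND4, and the other two belong to ND6.
O13734: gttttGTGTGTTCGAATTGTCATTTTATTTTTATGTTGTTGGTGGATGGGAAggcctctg
O5353: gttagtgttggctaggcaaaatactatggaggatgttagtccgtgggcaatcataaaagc
A_72_P442203: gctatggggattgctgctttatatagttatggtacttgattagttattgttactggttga
O2495: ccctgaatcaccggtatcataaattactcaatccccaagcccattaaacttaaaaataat

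G made up 30% of O13734, 30% of O5353 and 26.7% of A_72_P442203, against a median of 8.3% over the other 50 member probes (range 5% to 26.7%). A_72_P442203 held 45.0% T, while O2495, for the same gene, held 40.0% A and 28.3% C. Which strand each probe reads was not tested. Over all 61 arrays the mean log2 level was 6.33 for O5353 and 8.01 for A_72_P442203, and 11.64 to 17.33 for the other 50 kept probes. Levels of different probes are not comparable as amounts of RNA, because probes differ in how well they bind.

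Values below are log2 of the background-corrected fluorescence after quantile normalization over the 61 arrays, and a difference of 1 is a doubling. Differences were tested with limma over all 42436 kept probes, and a probe was called where the Benjamini-Hochberg adjusted p was under 0.01. For each gene, the kept probe with the highest mean level stands for the gene.

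Between day 90 and day 110, transcripts of the mitochondrially encoded subunits rose in all 4 genotypes. Averaged over genotypes, 51 of 52 probes were called higher and none lower, where 37.3% of all kept probes were called higher. The median change was 0.74 on the log2 scale, against 0.04 over all kept probes, and single probes ranged from 0.18 to 1.45. The probe that was not called was O5353 (0.18, SE 0.10, adjusted p = 0.0875), the dimmest of the kept probes. The changes were above 0 within each of the 8 slides for 50 of the 52 probes. Under a plain 75th percentile scaling of the arrays, without quantile normalization, the count was also 51, but the median change was 1.25, against 0.07 over all kept probes, so the size of the change depends on the scaling.

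ND1 forms the contact of the membrane arm with the ubiquinone site. Its main probe, A_72_P725283, lay at 16.66 to 17.26 (median 17.16) in LW, 17.05 to 17.43 (median 17.32) in MSLW, 16.72 to 17.10 (median 16.93) in MS and 16.70 to 17.16 (median 16.87) in LWMS at day 90. At day 110 it lay at 17.37 to 17.75 (median 17.58) in LW, 17.60 to 17.82 (median 17.71) in MS and 17.41 to 17.62 (median 17.52) in LWMS, while the 5 MSLW fetuses gave 17.78, 17.77, 17.79, 17.75 and 17.64. The ranges of the 2 ages did not overlap within MS, LWMS or MSLW, nor within LW, and the mean change was 0.58 (SE 0.04, adjusted p = 3.36e-22), or 1.498-fold. All 20 ND1 probes were called higher, from 0.37 to 1.30.

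ND2, ND4 and ND5 are related in structure to ion antiporters and form proton channels. The main probe of ND2, A_72_P724458, lay at 15.60 to 16.01 (median 15.87) in LW, 15.71 to 16.35 (median 15.93) in MSLW, 15.26 to 15.79 (median 15.54) in MS and 15.33 to 15.79 (median 15.63) in LWMS at day 90. Values at day 110 were 15.88 to 16.60 (median 16.32) in LW, 16.43 to 16.78 (median 16.57) in MS and 16.32 to 16.55 (median 16.46) in LWMS, while the 5 MSLW fetuses gave 16.47, 16.54, 16.53, 16.54 and 16.38. MS fetuses had the lowest median at day 90 and the highest at day 110. The change of ND2 was 0.41 (SE 0.08) in LW and 1.07 (SE 0.08) in MS.

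The main probe of ND4, A_72_P764558, gave 16.01 to 16.47 (median 16.32) in LW, 16.08 to 16.68 (median 16.37) in MSLW, 16.35 to 16.82 (median 16.56) in MS and 16.24 to 16.72 (median 16.59) in LWMS at day 90. The day 110 values were 16.50 to 16.92 (median 16.69) in LW, 17.38 to 17.65 (median 17.42) in MS and 16.94 to 17.30 (median 17.08) in LWMS, while the 5 MSLW fetuses gave 17.02, 17.02, 16.87, 17.04 and 16.81. All MS fetuses of day 110 were above all fetuses of the other genotypes at either age. Of the 11 ND4 probes, 10 were called higher with age.

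The main probe of ND5, O7769, gave 14.59 to 15.69 (median 15.44) in LW, 15.10 to 15.71 (median 15.34) in MSLW, 14.66 to 15.52 (median 15.20) in MS and 14.69 to 15.51 (median 15.22) in LWMS at day 90. Later, at day 110, it gave 15.62 to 16.24 (median 15.84) in LW, 16.19 to 16.84 (median 16.35) in MS and 15.92 to 16.28 (median 16.06) in LWMS, while the 5 MSLW fetuses gave 16.39, 16.35, 16.05, 16.42 and 15.55. At 0.89 (SE 0.07), ND5 had the largest mean change with age of the 7 main probes. At day 110, 2 LW fetuses, at 15.62 and 15.68, and 1 MSLW fetus, at 15.55, lay within the day 90 range of their genotype.

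ND3, ND4L and ND6 are small subunits of the membrane arm. The main probe of ND3, A_72_P028386, was at 16.26 to 16.80 (median 16.65) in LW, 16.51 to 16.97 (median 16.66) in MSLW, 16.18 to 16.67 (median 16.49) in MS and 16.10 to 16.60 (median 16.39) in LWMS at day 90, with 1 MSLW value missing. By day 110 the levels were 16.85 to 17.10 (median 16.96) in LW, 16.97 to 17.24 (median 17.08) in MS and 16.65 to 16.97 (median 16.82) in LWMS, while the 5 MSLW fetuses gave 17.01, 17.09, 17.12, 17.30 and 17.11. Its change, 0.46 (SE 0.04), was the smallest of the main probes.

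The only probe of ND4L, A_72_P442199, was at 13.82 to 14.50 (median 14.30) in LW, 14.28 to 14.73 (median 14.39) in MSLW, 14.51 to 14.97 (median 14.81) in MS and 14.48 to 14.92 (median 14.62) in LWMS at day 90. Its day 110 levels were 14.46 to 14.98 (median 14.72) in LW, 15.69 to 16.13 (median 15.89) in MS and 15.27 to 15.56 (median 15.43) in LWMS, while the 5 MSLW fetuses gave 15.15, 15.11, 15.03, 15.27 and 14.70. Its level in LW fetuses at day 110 was close to that in MS fetuses at day 90, with medians of 14.72 and 14.81. The change with age was 0.43 (SE 0.08) in LW and 1.1 (SE 0.09) in MS.

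The main probe of ND6, O2495, was at 14.63 to 15.17 (median 15.00) in LW, 14.82 to 15.09 (median 15.03) in MSLW, 13.96 to 14.78 (median 14.43) in MS and 14.07 to 14.70 (median 14.50) in LWMS at day 90. By day 110 it reached 15.17 to 15.64 (median 15.50) in LW, 15.47 to 16.07 (median 15.72) in MS and 15.02 to 15.51 (median 15.35) in LWMS, while the 5 MSLW fetuses gave 15.80, 15.88, 15.59, 15.83 and 15.49. No fetus with a MS sow reached the median of the LW-sow groups at day 90, whereas at day 110 the ranges overlapped. O2495 changed by 0.44 (SE 0.09) in LW and 1.31 (SE 0.10) in MS, and the difference between the purebreds was 0.87 (SE 0.13, adjusted p = 7.80e-06). These are values of O2495 alone. O2495 has no listed place in the ND6 transcript, whereas A_72_P442203 has one, and whether O2495 reads ND6 RNA was not tested. The other ND6 probe, A_72_P442203, changed by 0.29 (SE 0.18, adjusted p = 0.164) in LW and 0.19 (SE 0.19, adjusted p = 0.39) in MS, and its difference between the purebreds was -0.10 (SE 0.26, adjusted p = 0.846).

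**Figure D1:**
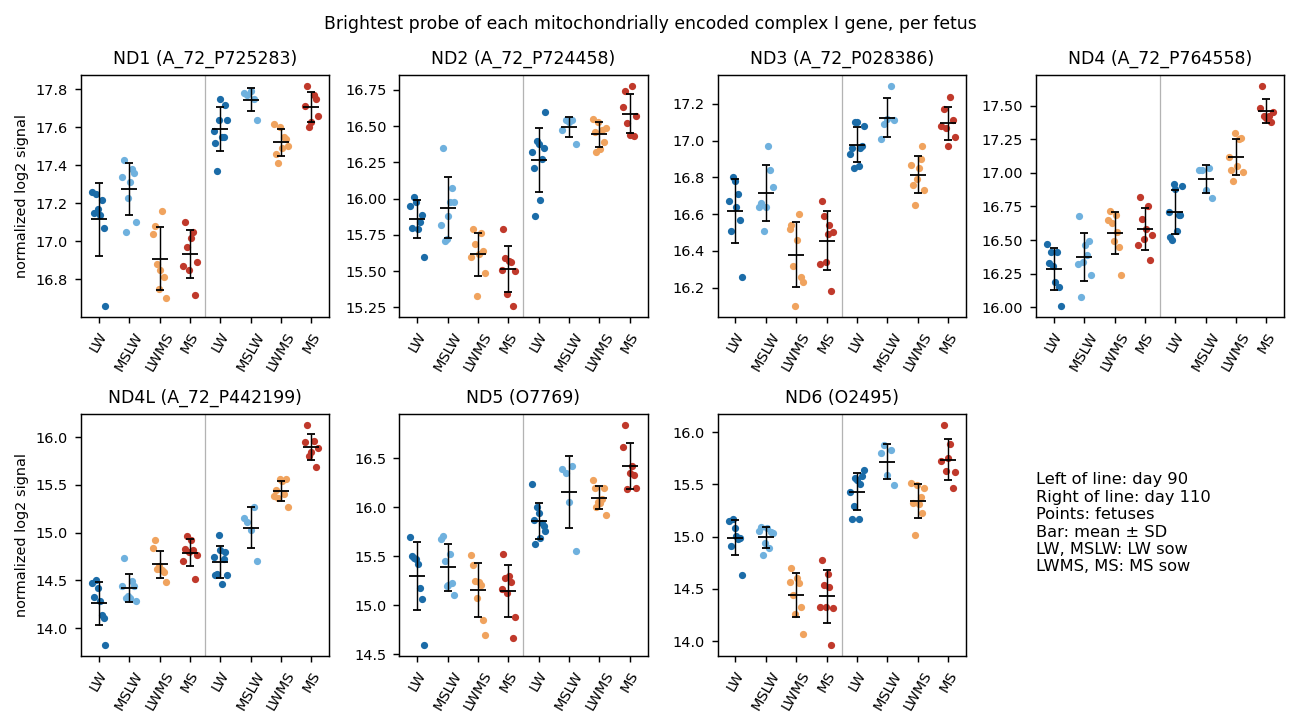
Normalized log2 level of the main probe of each of the 7 genes in each of the 61 fetuses (1 point for each fetus), by genotype and day of gestation. The median is higher at day 110 than at day 90 in each genotype and gene, with overlap between single fetuses in LW and MSLW for some genes, and ND4 and ND4L are highest in MS fetuses of day 110.

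The change with age was larger in MS than in LW for 50 of 52 probes. Within genotypes, 47 probes were called higher in LW (21.8% of all kept probes), 50 in MS (28.6%), 50 among LWMS (25.1%) and 48 among MSLW fetuses (20.8%), and none was called lower. The median change over the 52 probes, 0.46 in LW and 1.09 in MS, was 0.79 in LWMS fetuses and 0.68 in MSLW fetuses. Tested against each other, the age changes of the purebreds differed for 37 probes, all with the larger rise in MS, where 2.56% of all kept probes were called in that direction. These 37 were 11 of 20 ND1, 11 of 12 ND2, 8 of 11 ND4, 3 of 3 ND5, 2 of 3 ND3, 1 of 2 ND6 probes and that of ND4L.

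**Figure D2:**
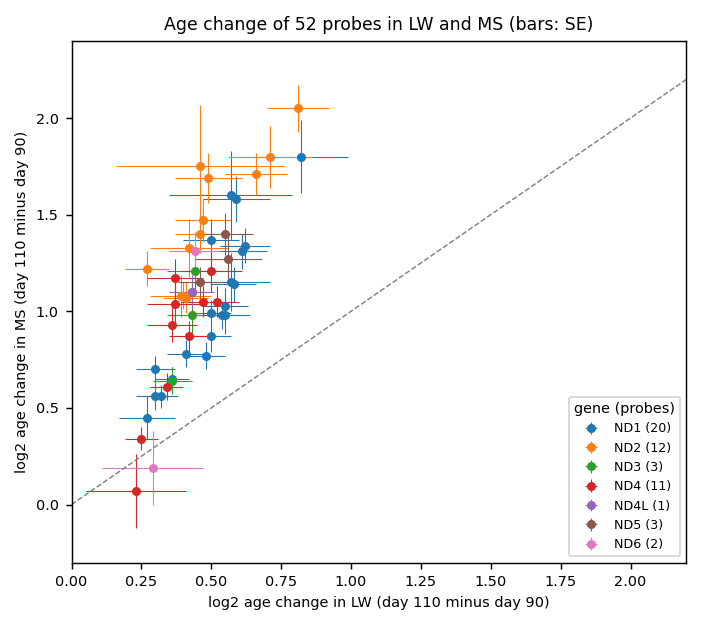
Change from day 90 to day 110 (log2) in LW on the horizontal axis and in MS on the vertical axis, 1 point for each of the 52 kept probes, coloured by gene, with bars for the SE and a dashed line where both changes are equal. In 50 of the 52 the change is larger in MS, and all lie above 0 on both axes.

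By parent, the change with age was larger with a MS than with a LW sow for 26 called probes, where 1.11% of all kept probes were called in that direction, and the median over the 52 probes was 0.38. With 75th percentile scaling this count was 41. Among main probes it was called for ND2 (0.47, SE 0.08, adjusted p = 0.000216), ND4L (0.41, SE 0.09, adjusted p = 0.00139) and ND6 (0.52, SE 0.10, adjusted p = 0.000314). The ND6 value is that of O2495, while the other ND6 probe, A_72_P442203, gave -0.09 and was not called. For the breed of the boar, limma called 0 of 52 probes (0.497% of all kept probes in either direction), although 35 had an unadjusted p under 0.05, and the median was 0.26. With 75th percentile scaling 2 probes were called.

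Over all 52 probes, mean level and age change had a Pearson r of -0.16. The dimmest probes, O5353 and A_72_P442203, were among those that changed least, by 0.18 and 0.38. Without these and O2495, a choice made after the values were seen, r over the other 49 probes was -0.86. The points share the arrays, and many share bases. Among ND1 probes the dimmest, A_72_P769233 (mean level 11.64), changed by 1.30 and the brightest, A_72_P725283 (17.33), by 0.58. Among ND2 probes, A_72_P766062 (12.32) changed by 1.45 and A_72_P724458 (16.06) by 0.72. No member spot was saturated.

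The level also differed with the breed of the sow, and not in 1 direction. As the average over both ages and both boar breeds, 14 of 52 probes were called higher and 27 lower with a MS than with a LW sow, where 7.92% of all kept probes were called higher and 9.27% lower. The median was -0.15 and the range -2.86 to 0.73, against a median of 0 over all kept probes. The direction held within all 8 slides for 25 of the 27 probes called lower and 13 of the 14 called higher. Slide 2 held no LW-sow fetus of day 110, so its difference is that of day 90 alone. Most probes of ND1 and ND2 were lower and most of ND4 higher. For ND1, 15 of 20 probes were lower and 1 higher, and for ND2, 8 of 12 were lower and none higher. For ND4, 10 of 11 were higher and only O5353 was lower, and the single ND4L probe was higher. ND3 had 1 higher and 2 lower, ND6 had 1 of each, and none of the 3 ND5 probes was called.

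Along the gene order, 23 of the 27 lower probes lay in the neighbours ND1 and ND2, and 11 of the 14 higher ones in the neighbours ND4L and ND4. Of the 52 kept probes, ND1 holds 20, ND2 12, ND4 11 and ND4L 1. Many ND1 and ND2 probes overlap in sequence, so they are not separate readings. The ND4L difference was 0.59 (SE 0.04, adjusted p = 5.80e-17), or 1.51-fold, and that of the main ND4 probe 0.35 (SE 0.04, adjusted p = 5.09e-10), or 1.27-fold. For ND6 the main probe differed by -0.30 (SE 0.05, adjusted p = 2.80e-06), for ND3 by -0.17 (SE 0.04, adjusted p = 0.000294) and for ND1 by -0.16 (SE 0.04, adjusted p = 0.000265). With 75th percentile scaling the last 2 no longer passed, at adjusted p = 0.0195 for ND3 and 0.0227 for ND1. The main probes of ND2 (-0.10, SE 0.04, adjusted p = 0.0772) and ND5 (0.03, SE 0.07, adjusted p = 0.801) were not called, and the ND5 value was -0.01 without 1 MSLW fetus of day 110.

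At day 90, 10 probes were higher and 33 lower with a MS sow, where 2.90% and 3.59% of all kept probes were called. At day 110 there were 14 higher and 14 lower (6.67% and 8.43%). The difference at day 110 lay above that at day 90 for 49 of the 52 probes. At day 110, ND4L differed by 0.80 (SE 0.06), against 0.39 (SE 0.06) at day 90. The main ND6 probe differed by -0.56 (SE 0.07) at day 90 and by -0.04 (SE 0.07) at day 110. Fetuses of MS and LW sows did not overlap for 13 probes at day 90, all lower with a MS sow (0.170% of all kept probes). At day 110 there was no overlap for 6 lower and 1 higher probe (0.132% and 0.0542%). All these probes belonged to ND1 and ND2.

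The crosses have the same parental breeds in opposite roles. LWMS fetuses, with a MS sow, were lower than MSLW fetuses for 28 probes at day 90 and higher for 1, where 0.351% of all kept probes were called lower and 0.148% higher. At day 110, 16 were lower and 1 higher (0.547% and 0.370%). The probes called at day 90 were 17 of ND1, 8 of ND2, 2 of ND3, 1 of ND5 and 1 of ND6. At day 90 the sign of the difference between the crosses was that of the difference between sow breeds for all 52 probes, and these comparisons share the crossbred fetuses. The ND4 probes, at -0.34 to 0.34, and the ND4L probe, at 0.25 (SE 0.08, adjusted p = 0.196), were not called between the crosses at day 90.

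For the breed of the boar, limma called 0 of 52 probes at day 90, although 6 had an unadjusted p under 0.05, and 5.13% of all kept probes were called in either direction. The differences ranged from -0.22 to 0.14. At day 110, 31 probes were higher with a MS boar and none lower, where 5.93% of all kept probes were called higher, and the median was 0.29. With 75th percentile scaling the count was 47. The largest among main probes was that of ND4L, 0.41 (SE 0.06, adjusted p = 2.00e-06). At day 90 the difference between sow breeds was larger in size than that between boar breeds for 51 of 52 probes. This count was not made at day 110, where the order varied by gene. The 3 ND5 probes gave 0.07 to 0.25 by sow breed and 0.31 to 0.36 by boar breed at that age. The 12 ND2 probes gave -2.43 to 0.22 by sow breed and 0.19 to 0.44 by boar breed.

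Between the purebreds, both parents differ. MS fetuses were higher than LW for 11 probes and lower for 27 at day 90 (6.23% and 6.61% of all kept probes). At day 110 they were higher for 25 and lower for 8 (13.7% and 15.2%). ND4L was 2.31-fold higher in MS at day 110 (1.20, SE 0.08, adjusted p = 1.20e-17) and ND4 1.68-fold (0.75, SE 0.08, adjusted p = 1.52e-11).

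Probes of the same gene gave different answers on the breed of the sow. For each probe, the mean of the other kept probes of its gene was subtracted within each array and the same comparison was fitted, over 16708 probes of 5245 gene names. ND4L, with 1 probe, has no such value. Of the 51 member probes, 41 differed from the others of their gene by sow breed (7.10% of these probes over the whole array), 25 upward and 16 downward. One very low probe lowers the mean of the others and so shifts every other probe of its gene upward. For the change with age 33 of 51 differed, where 39.4% of all did, and for the breed of the boar 1 of 51, where 7.22% did. By gene, 18 of 20 ND1, 11 of 12 ND2, 3 of 3 ND3, 7 of 11 ND4, none of 3 ND5 and both ND6 probes differed by sow breed.

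The strongest was the ND2 probe A_72_P719508, printed above. At day 90 it lay at 10.24 to 13.41 (median 11.74) with a MS sow and 14.45 to 15.18 (median 14.77) with a LW sow. At day 110 it lay at 11.93 to 14.01 (median 13.06) with a MS sow and 14.81 to 15.86 (median 15.31) with a LW sow. The sow breeds did not overlap at either age. The mean difference was -2.86 (SE 0.16, adjusted p = 1.77e-21), 0.138 times the level with a LW sow, and against the other ND2 probes it was -2.18 (SE 0.16, adjusted p = 3.65e-17), the 6th largest in size of the 16708 probes. For the breed of the boar the same probe gave -0.01 (SE 0.16, adjusted p = 0.979).

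The overlapping ND2 probe A_72_P727968 shares 55 aligned bases with it apart from A13G and 1 base. At day 90 this probe lay at 14.04 to 15.02 (median 14.51) with a MS sow and 15.41 to 16.20 (median 15.71) with a LW sow, again without overlap. At day 110 it lay at 15.20 to 16.23 (median 15.73) with a MS sow and 15.73 to 16.65 (median 16.31) with a LW sow, with overlap. Its difference was -0.92 (SE 0.07), so the pair differed by 1.94 on the log2 scale for the breed of the sow, and by 0.13 for the change with age.

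In ND1, the 3 overlapping probes that start at 393, 400 and 410 gave -0.90 (SE 0.06), -1.26 (SE 0.06) and -2.20 (SE 0.12) for the breed of the sow, in that order. The last, A_72_P745561, lay at 11.08 to 13.10 (median 12.04) with a MS sow and 14.15 to 14.92 (median 14.35) with a LW sow at day 90. The first, A_72_P754234, lay at 13.45 to 14.18 (median 13.63) with a MS sow and 14.51 to 15.33 (median 14.78) with a LW sow at that age. Both were lower with a MS sow without overlap at day 90, and the difference was larger the farther along the transcript the probe began. Their changes with age were 0.90, 1.02 and 1.02. A_72_P745561 fell below the other ND1 probes by sow breed with a difference of -1.86 (SE 0.10, adjusted p = 5.31e-22), the 7th largest in size.

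In the ND1 pair that starts at 678 and 683, 1 probe was called higher with a MS sow and the other was not called. A_72_P758032 lay at 15.14 to 15.78 (median 15.39) with a MS sow and 14.57 to 15.34 (median 14.80) with a LW sow at day 90 and at 16.09 to 16.82 (median 16.39) with a MS sow and 14.90 to 15.91 (median 15.52) with a LW sow at day 110. A_72_P757573 lay at 14.01 to 14.60 (median 14.39) with a MS sow and 14.40 to 15.09 (median 14.62) with a LW sow at day 90 and at 15.13 to 15.99 (median 15.45) with a MS sow and 14.80 to 15.65 (median 15.32) with a LW sow at day 110. The former was higher with a MS sow, by 0.73 (SE 0.05, adjusted p = 1.34e-19), and the only probe of ND1 called higher, whereas the latter gave -0.07 (SE 0.05, adjusted p = 0.270).

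Most overlapping probes gave the same value. Among 32 pairs with at least 30 aligned bases, the median gap for the breed of the sow was 0.06, and 4 pairs exceeded 0.5: the ND2 pair, the ND1 pair and 2 pairs with A_72_P745561. A substitution separated 6 of the 32 pairs, and outside the ND2 pair these differed by 0.08 at most. A base missing in 1 of the probes was found in 22 pairs, and 7 pairs had neither within the compared stretch. The ends of that stretch were trimmed until 5 aligned bases in a row matched. Differences near the end of a probe therefore entered none of these counts. The pair of A_72_P745561 and A_72_P754234 is among the 7, although the first base of A_72_P745561 differs from the base at that place in A_72_P754234. For the change with age no pair differed by more than 0.36. Whether the mitochondrial DNA of LW and MS sows differs under any of these probes was not tested, since no mitochondrial sequence of the fetuses was used here.

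Among ND2 probes without such a partner, A_72_P737152, which starts at 500, lay at 11.89 to 13.42 (median 12.19) with a MS sow and 14.40 to 14.99 (median 14.56) with a LW sow at day 90. At day 110 it lay at 13.20 to 14.02 (median 13.70) with a MS sow and 14.73 to 15.66 (median 15.27) with a LW sow, so the sow breeds were apart at both ages. It differed by -1.97 (SE 0.07, adjusted p = 4.60e-32) and from the other ND2 probes by -1.20 (SE 0.03, adjusted p = 4.56e-36). The first probe of ND1, A_72_P769233, which starts at 68, differed by -1.47 (SE 0.09, adjusted p = 3.07e-19) and from the other ND1 probes by -1.09 (SE 0.08, adjusted p = 4.94e-17).

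The pair of ND6 probes went apart. A_72_P442203 lay at 7.83 to 8.62 (median 8.20) with a MS sow and 5.95 to 8.03 (median 7.61) with a LW sow at day 90 and was higher with a MS sow by 0.70 (SE 0.10, adjusted p = 5.55e-08). Within slides, its day 90 difference was 2.09 on slide 8 and 0.23 to 0.84 on the others. O2495 was lower by 0.30 (value -0.30, SE 0.05). With 2 probes in the gene, the test against the other gave 1 and -1 (SE 0.11, adjusted p = 2.18e-10). In ND3, O2102 differed from the others by 0.75 (SE 0.03, adjusted p = 1.64e-26) and was higher with a MS sow by 0.50, while A_72_P757289 gave -0.38 and A_72_P028386 -0.17. In ND4, O5353 differed from the others by -0.77 (SE 0.11, adjusted p = 3.16e-07).

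Fetuses of one group differed most on the probe that was lowest with a MS sow. The SD of A_72_P719508 within groups was 0.85 over fetuses of MS sows and 0.27 over those of LW sows, against a median of 0.17 and 0.19 over the 52 probes. At day 90, the MS fetuses on slides 1, 2, 5 and 6 gave 10.24, 10.80, 10.62 and 10.75, and those on slides 3, 4, 7 and 8 gave 12.14, 11.81, 11.68 and 12.46. LWMS fetuses of that age gave 10.43, 10.89, 10.81 and 13.41 on the former slides and 12.24, 11.86, 12.30 and 12.26 on the latter. Apart from the value 13.41, both genotypes were lower on the same 4 slides. At day 110, fetuses of MS sows ranged from 11.93 to 13.06 on the former slides and from 13.17 to 14.01 on the latter. The slides were grouped after these values were seen and the gap was not tested, and whether fetuses on one slide shared a sow is not given in the labels. Within slides the difference between sow breeds ranged from -3.88 to -2.22, and the SD over fetuses of MS sows was 0.56. The value -3.88 is that of slide 2, which held no LW-sow fetus of day 110, so it covers day 90 alone.

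**Figure D3:**
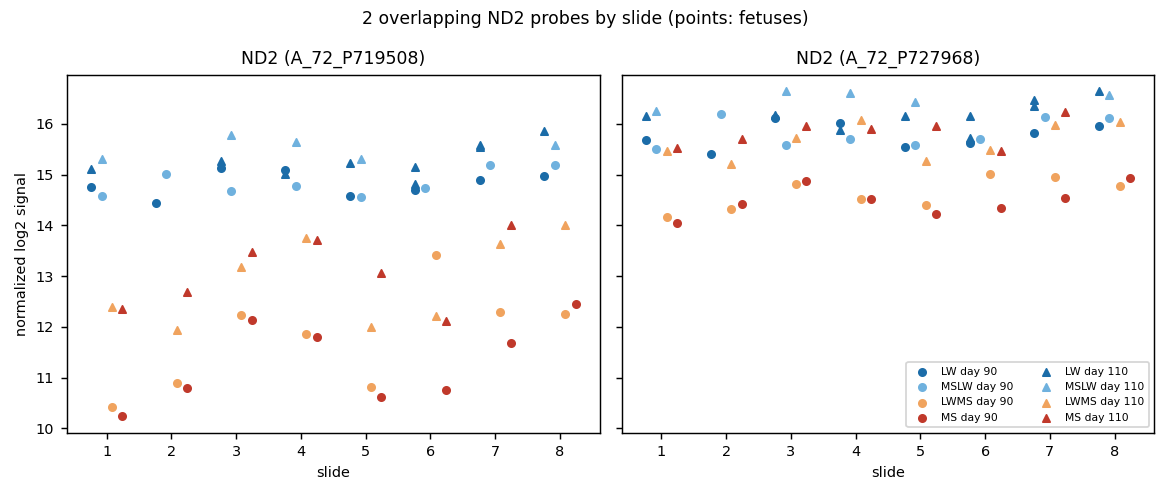
Normalized log2 level of the ND2 probe A_72_P719508 in each fetus (1 point for each) by slide, coloured by breed of the sow and marked by day of gestation. Fetuses of MS sows lie below those of LW sows on all 8 slides. Within each age, fetuses of MS sows lie lower on slides 1, 2, 5 and 6 than on the others. The exception is 1 LWMS fetus of day 90 on slide 6.

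The other 6 proteins of the mitochondrial genome have 75 probes on the array, and all were kept. With age, 61 were called higher and 1 lower. Their main probes changed little apart from ATP8, a small subunit of ATP synthase, with 1.03 (SE 0.04). The main probe of CYTB, a subunit of complex III, changed by 0.15 (SE 0.03), and the median over the 6 was 0.11, against 0.72 over the main probes of the 7 complex I genes. These 6 are brighter, with group medians of their mean level at 17.67 to 18.07, against 15.71 to 16.63 for the complex I ones. Other probes of the same genes rose more, by up to 0.77 for CYTB, 0.64 for COX1, 0.67 for COX2 and 0.79 for COX3. For ATP6 the largest rise was 0.25. Single probes of COX1 and COX2, subunits of cytochrome c oxidase, went down to -2.44 and -1.80 for the breed of the sow. By sow breed, 13 of the 75 were called higher and 23 lower (7.92% and 9.27% of all kept probes).

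The nuclear genes of complex I rose with the mitochondrial ones. Of 37 nuclear subunits sought, 33 had a kept probe, and 32 were called higher with age and none lower, with a median of 0.97. The largest changes were in NDUFV1, which carries the NADH site, with 1.82 (SE 0.07), and NDUFA10, with 1.58 (SE 0.08). NDUFS5 gave 0.08 (SE 0.03, adjusted p = 0.0276). For the breed of the sow 9 of the 33 were called higher (7.92% of all kept probes) and none lower, within a range of -0.10 to 0.40. The change with age was larger with a MS sow for 1 of 33, where 1.11% of all kept probes were called in that direction. Main probes of the mitochondrial subunits spread from -0.30 to 0.59 for the breed of the sow, and 3 of 7 differed in age change by sow breed.

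Of 7 measured assembly factors of complex I, 5 rose with age and none fell, led by ACAD9 (1.27, SE 0.06) and NDUFAF4 (1.14, SE 0.05). Of 8 genes for replication and transcription of mitochondrial DNA, 4 rose and none fell, with a median of 0.30, led by MTERFD1 (0.60, SE 0.05) and POLG, the DNA polymerase of mitochondria (0.46, SE 0.04). TFAM, which packs and transcribes mitochondrial DNA, rose by 0.45 (SE 0.04) and was named after its value was seen. Of 11 genes for mitochondrial RNA, 9 rose and none fell, led by LRPPRC, which stabilizes mitochondrial messenger RNA (1.32, SE 0.05), and FASTK (1.21, SE 0.06). For the breed of the sow, 1 of 7, 0 of 8 and 1 of 11 genes of these lists were called by limma.

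Markers of other cell types moved with age. All 7 fibroblast and matrix markers fell, with a median of -1.53, led by the collagen genes COL1A2 (-2.12, SE 0.07) and COL3A1 (-1.70, SE 0.05). The mean of their log2 levels on an array lay between 13.32 and 13.75 in the 4 groups of day 90. At day 110 this mean lay between 12.10 and 12.64 in LW and 11.94 and 12.57 in MSLW. It lay between 11.78 and 12.44 in LWMS and 11.49 and 11.76 in MS at that age. All 7 markers were above background. For the breed of the sow, 4 of these 7 were lower and none higher, and their fall with age was larger with a MS sow for 3. Over all kept probes, 9.27% and 1.81% were called lower in these 2 comparisons. The mean log2 level of 8 skeletal muscle markers on an array lay between 17.32 and 17.77 in all groups. With age 5 rose and 2 fell, among them embryonic myosin MYH3 (-2.57, SE 0.11), MYLPF (-0.08, SE 0.02), TTN (0.51, SE 0.10) and TNNT3 (0.49, SE 0.03). Of 6 endothelium markers 4 fell, led by CLDN5 (-1.53) and CDH5 (-1.23), and VWF rose (1.29). Of the measured markers, 3 of 5 fell and 1 rose for adipocytes, 2 of 5 fell for leukocytes, 1 rose and 1 fell of 3 for red blood cells, 3 rose and 1 fell of 5 for nerve and glia, and 3 rose and 1 fell of 4 for heart muscle. The part of these shifts in the changes of the mitochondrial subunits was not tested.

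After removal of the 8 group means, the main probes of the 7 genes varied together over the 61 arrays, with a Pearson r between 0.52 (ND2 and ND5) and 0.80 (ND4L and ND5). Among names other than those of the mitochondrial protein genes, the most like the mean of the 7 main probes were TC541933 (r = 0.82), BCAT2 (0.75), GOT2 (0.74), EEF1A2 (0.73), TC573209 (0.73), GOT1 (0.72), ENSSSCT00000002006 (0.72) and ACSS2 (0.71), over 61 arrays. BCAT2 and GOT2 are mitochondrial and GOT1 cytosolic aminotransferases. TC541933 is a transcript cluster with no gene symbol on the array, its place in the genome was not examined, and with the breed of the sow it differed by -1.67 (adjusted p = 5.06e-21). These arrays share slides and sows, and the labels do not give which fetuses share a sow.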

How the data were processed

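The members and the gene lists were chosen with earlier results of these data known. The authors deposited the scanner output of each array, with spot intensity values from Agilent Feature Extraction 10.10.1.1 that were not normalized between arrays, and a table of log2 values that they had quantile normalized, with 44368 spots and 2351 missing values. Column medians of these deposited values ran from 8.093 to 8.099, its row numbers match those of the scanner output (r 0.9828 to 0.9942 with the values used here), and the table was used in an alternative. Label preparation was that of the submitters' 1-colour protocol with Cy3.

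Control spots and spots marked non-uniform (4 to 802 per array) were left out, and the scanner's background-corrected intensity was brought to 1 common distribution by quantile normalization and put on the log2 scale, which set 5 member spots to missing. Spots of a probe were averaged. The filter required a probe to exceed background, by the scanner's own mark, in 80% or more of the fetuses of any of the 8 groups. The 75th percentile of the signal ran from 469.6 to 1156.4 per array, and the number of arrays limits the precision. Groups came from the sample labels. The 8 group means were fitted with limma, and contrasts had moderated two-sided tests with Benjamini-Hochberg adjustment over all kept probes at 0.01. The random sow effect of the authors' model was left out, because the labels do not give the sow. Probes were also fitted after subtraction of the mean of the other probes of their gene name; 948 probes with the name GI were left out there.

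All member probes were counted, and the brightest kept probe of each gene is given in full. Of the probes that departed from their gene by sow breed, only some are named. The 2 largest called age changes in each direction are named per list. The lists of adipocytes, leukocytes, red blood cells, nerve and glia, and heart muscle have counts only. The 8 most alike names were ranked by r over 27702 names. The 5′ to 3′ sequences came from the scanner output, and pairs were aligned on the same strand with at least 30 aligned bases and at most 4 substitutions. Each end of an overlap was trimmed until 5 aligned bases in a row matched. Scripts were tested on simulated data. Alternatives changed the signal column, table, background correction, scaling, filter, marked spots, slide, moderation, averaging by gene and each MSLW fetus of day 110. Without LWMS replicate 6 of day 90, without O5353 and the ND6 probes, and with the median of the other probes were added after seeing the data. Software was R 4.3.3, limma 3.58.1, the data.table package 1.17.8, Python 3.11.15, pandas 2.3.3, matplotlib 3.10.9 and Biopython 1.88. No genome was used.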

Additional observations from a re-analysis of the deposited data

Results flagged for a closer look

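In groups of 4 to 10 fetuses, the value farthest from the rest was set against Dixon's critical value for 18 member probes, 144 probe and group combinations in all, of which 12 were past it. Chance marks about 1 in 20 groups.

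LWMS replicate 6 of day 90 stood above its group on A_72_P754234 (14.18, next 13.68) and A_72_P739924 (13.42, next 12.76) of ND1 and A_72_P737152 of ND2 (13.42, next 12.45). It was the highest of its group on 28 of the 52 member probes. Without it, counts of called probes changed by less than 1.5 times, and the sow-breed difference of A_72_P719508 was -2.92 in place of -2.86.

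MSLW replicate 2 of day 90 stood above its group on A_72_P442199 of ND4L (14.73, next 14.49) and on A_72_P758032 (15.34, next 14.97) and A_72_P757573 (15.09, next 14.79) of ND1. It was the highest of its group on 34 of the 52 probes.

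On the main ND1 probe A_72_P725283, MSLW replicate 5 of day 110 was low at 17.64 (next 17.75) and LW replicate 8 of day 90 at 16.66 (next 17.07). On the main ND4 probe A_72_P764558, MS replicate 2 of day 110 was high at 17.65 (next 17.48). On the dim ND6 probe A_72_P442203, MSLW replicate 8 of day 90 was low at 5.95 (next 7.39) and LW replicate 8 of day 90 at 6.36 (next 7.20). On the dim ND4 probe O5353, MSLW replicate 1 of day 110 was low at 6.36 (next 6.73).

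The change with age differed by breed of the sow, in limma's test of the difference, for the main probes of ND2 (0.47), ND4L (0.41) and ND6 (0.52). Between MS and LW it differed for ND2 (0.66), ND4 (0.45), ND4L (0.67), ND5 (0.71) and ND6 (0.87). All 8 were larger with MS, and these comparisons share fetuses. The ND6 values are those of O2495, and the other ND6 probe, A_72_P442203, gave -0.09 and -0.1 and was not called.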

How the results depend on the processing

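Over all alternatives, 335 of 340 recomputed counts stayed within 1.5 times the reported one, and of 488 values of single probes 485 kept their direction and side of the threshold. With arrays scaled to their 75th percentile, 47 member probes were called for the breed of the boar at day 110 (31 reported), 41 for the age change by breed of the sow (26 reported) and 2 for the age change by breed of the boar (0 reported), while the sow-breed differences of the main probes of ND1 (-0.15) and ND3 (-0.14) were no longer called. With the probes of a gene averaged before the fit, 5 genes in place of 2 main probes were called for the breed of the sow at day 110, and 2 in place of 0 between the crosses at day 110. The cause was not tested for either setting. Leaving out each MSLW fetus of day 110 in turn gave -0.01 to 0.05 for the ND5 probe O7769 by breed of the sow (0.03 reported), negative without replicate 5, and no other change of sign or side of the threshold among the probes recomputed singly. With slide as a block, calls of single probes changed in 13 of 18 comparisons, by at most 5 probes each. In that fit the age change by breed of the sow was called for 31 probes (26 reported), the ND5 probe A_72_P155721 was called lower with a MS sow (-0.13, adjusted p = 0.00973), the ND4 probe A_72_P731718 (0.34, adjusted p = 0.00792) and the ND4L probe (0.37, adjusted p = 0.00341) were called between the crosses at day 90 and day 110, and the difference between the purebreds in O2495 at day 110 (0.26, adjusted p = 0.0161) was no longer called. In the deposited table, counts of called probes changed by less than 1.5 times. No paired analysis was possible because the labels give each fetus its own number and replicate numbers follow accession order. The sow could not be entered, and the dim probes O5353 and A_72_P442203 have the lowest signal over background.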
